A study of Mus musculus with 13 samples.

Results

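Haematopoietic stem cells (HSCs) restricted to making platelets, erythroid cells and myeloid cells were compared with multilineage HSCs, region by region, for how open their chromatin was. The comparison used 10 of the 13 libraries of the study, 6 of PEM-restricted HSCs (PEM-HSC, where P, E and M stand for those lineages) and 4 of multilineage HSCs (MUL-HSC). They were chosen by their labelled group alone, and no library of the platelet-restricted group was used. All mice were C57BL/6. Per the series description, recipients were transplanted with a single Vwf+ HSC from mouse bone marrow and classed by the lineages restored over 16 weeks. Donor-derived HSCs were then sorted from the recipients' marrow, 500 cells per library. Both groups carry the same labelled phenotype, LSKFlt3-CD150+CD48-CD45.2+Gata1-, so the groups differ in the recipient's reconstitution and not in the sort gate. Donor HSCs of 1 recipient descend from 1 transplanted cell, and the labels do not say whether libraries of a group came from separate recipients.

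HSCs sit at the top of blood formation. Vwf encodes von Willebrand factor, a clotting protein stored by platelets and their precursors, the megakaryocytes, and HSCs that express it tend to favour platelet output. Gata1 is a transcription factor of megakaryocytes and erythroid cells. ATAC-seq cuts accessible DNA with a transposase, so regions with many reads mark promoters, enhancers and other regulatory DNA that is open in the cells, whether or not the nearby gene is transcribed. An HSC can hold enhancers of a lineage open before it makes that lineage, which is called lineage priming.

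Regions are named below by their mm9 position in the deposited table, since no annotation of that build was used and no gene was assigned to a region. The labelled cell type was therefore not checked against marker genes either. Accessibility is given as CPM (counts scaled to library depth), where 1 count is worth 0.295 to 0.911 CPM depending on the library. Library totals were 1307222 to 2831520 counts in MUL-HSC and 1276962 to 3851165 in PEM-HSC. On the first principal component of log2 CPM, which held 26.8% of the variance, MUL-HSC replicate 3 scored 1.32. Scores ran from -77.85 to -35.11 in the rest of its group and from 3.65 to 73.4 in PEM-HSC. MUL-HSC replicate 3 thus stood apart from its group, beside the PEM-HSC range, and counts are given below with and without it. In bulk libraries, fewer cells with an open region and a smaller opening per cell cannot be told apart.

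More regions were called less accessible than more accessible in PEM-HSC, by a margin that 1 other fit described below nearly removed. Of 46861 regions tested, 409 were less accessible in PEM-HSC (0.873%) and 148 more accessible (0.316%; edgeR quasi-likelihood test, Benjamini-Hochberg adjusted p at 0.05), together 1.19% of those tested. The lower regions had a median log2 fold change of -1.14, and their median level was 18.2 CPM in MUL-HSC and 7.77 CPM in PEM-HSC. The higher regions had a median log2 fold change of 1.25, from a median of 6.62 CPM in MUL-HSC to 16.6 CPM in PEM-HSC. Over all tested regions the median log2 fold change was 0.01, and 48.1% had a negative one. A change of at least 2-fold was fitted in 262 of the lower and 93 of the higher regions, and one of at least 4-fold in 26 and 18. Most losses were partial: in only 2 of the 409 lower regions was the PEM-HSC mean under 1 CPM. Among the 148 higher regions, 5 had a MUL-HSC mean under 1 CPM.

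**Figure D1:**
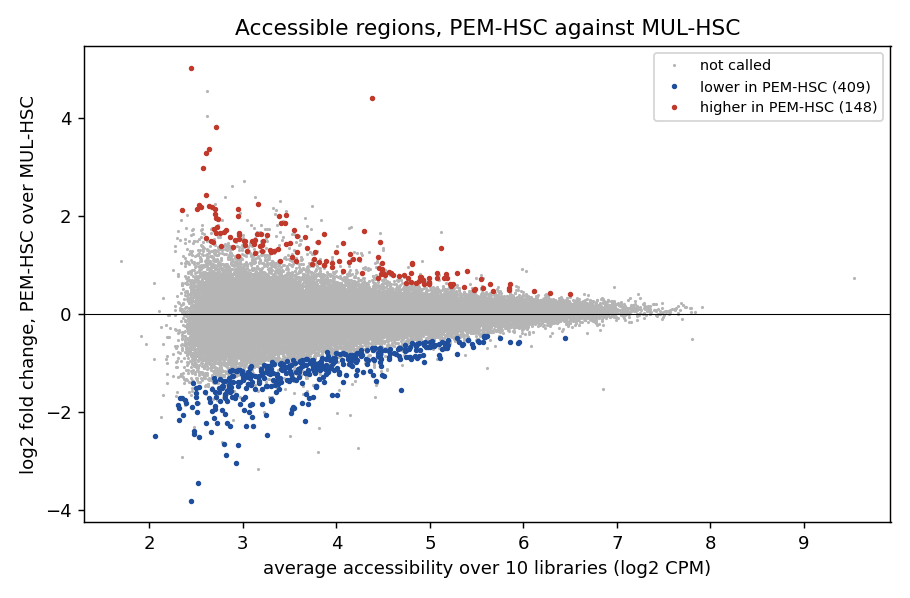
Each point is 1 of the 46861 tested regions, with average accessibility (log2 CPM over 10 libraries) on the x axis and the log2 fold change of PEM-HSC over MUL-HSC on the y axis. The 409 regions called lower (blue) lie below 0 and the 148 called higher (red) above it, and the largest fold changes of both colours sit at low average accessibility.

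The groups did not overlap in 311 of the 409 lower and 114 of the 148 higher regions. Over all tested regions, PEM-HSC lay wholly below MUL-HSC in 2.17% and wholly above in 1.47%, together 3.64%. MUL-HSC replicate 3 was the MUL-HSC library nearest to PEM-HSC in 248 of the 409 lower regions (60.6%) and in 92 of the 148 higher regions (62.2%). Each other MUL-HSC library was nearest in 48 to 61 of the lower regions. MUL-HSC replicate 3 fell inside the PEM-HSC range in 69 of the lower regions, against 6 to 19 for the other MUL-HSC libraries. Of the PEM-HSC libraries, replicates 4 and 6 most often came nearest to MUL-HSC in the lower regions, in 158 and 121 of them.

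The number of called regions depended on which libraries were fitted. Without MUL-HSC replicate 3 the same test called 857 lower and 498 higher regions, and 510 of the 557 original calls stayed called. Without MUL-HSC replicate 1 it called 122 lower and 35 higher, without replicate 2 123 and 30, and without replicate 4 62 and 18. Of the 557 original calls, only 135 stayed called without MUL-HSC replicate 1, 136 without replicate 2 and 74 without replicate 4. Without PEM-HSC replicate 1 the counts were 166 and 60, without replicate 5 181 and 46, without replicate 2 302 and 84, without replicate 3 401 and 234, and without replicate 4 629 and 215. No call changed its direction in these fits, which the choice of calls by p and the shared libraries favour. Lower regions outnumbered higher ones in each of these fits. Higher regions were 26.6% of the calls with all libraries, 36.8% without MUL-HSC replicate 3 and 36.9% without PEM-HSC replicate 3. In another fit, a covariate held each library's share of counts in the 5000 regions strongest on average over the 10 libraries. With it, 84 lower and 77 higher regions were called, 47.8% higher. That share was 39.8% in PEM-HSC replicate 3 and 34.7% to 36.8% in the other libraries. Under this covariate 136 of the 557 original calls stayed called.

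**Figure D2:**
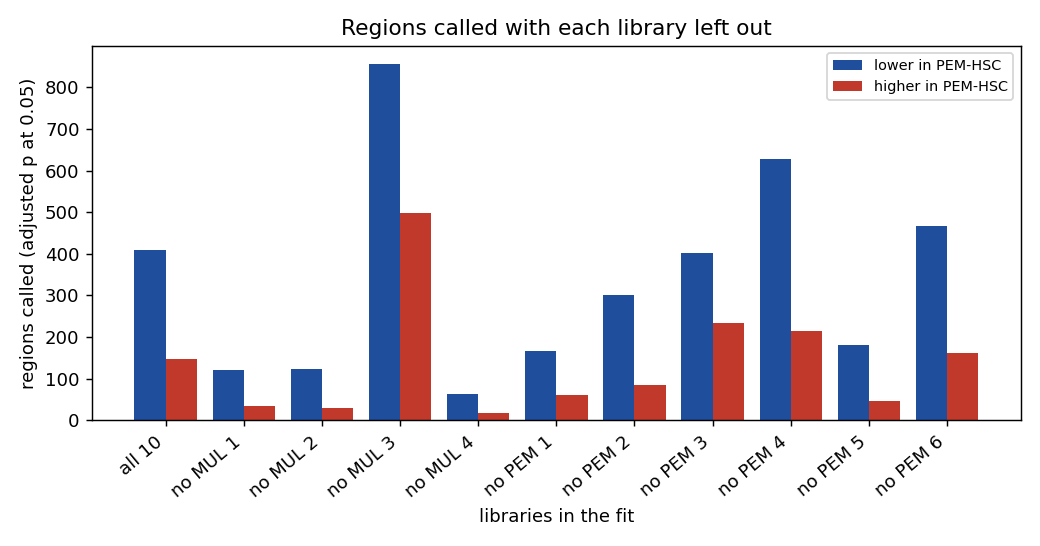
Bars give the number of regions called lower (blue) and higher (red) in PEM-HSC, on the y axis, with all 10 libraries and with each library left out in turn, on the x axis. Counts are highest without MUL-HSC replicate 3 (857 and 498) and lowest without MUL-HSC replicate 4 (62 and 18).

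The 12 lower regions of smallest p are called L1 to L12 in that order, and the 12 higher ones H1 to H12. In all 24 the groups did not overlap, which held for 3.64% of all tested regions. Choosing regions by smallest p favours such separation. All of the 12 lower regions but L7 and L10 passed the filter for low counts only through MUL-HSC, where they are high. The deepest losses were in regions that PEM-HSC held almost closed. L1, on chromosome 18 from 76375444 to 76375896, had 11.4, 10.5, 8.91 and 14.1 CPM in MUL-HSC replicates 1 to 4. In PEM-HSC its lowest value was 0.443, its median 0.905 and its highest 1.98 CPM. All PEM-HSC libraries were thus far below the lowest MUL-HSC library, and the log2 fold change was -3.45 ± 0.40 (SE; adjusted p = 6.04e-05, edgeR). L6, on chromosome 8 from 127206097 to 127206665, had 13.4, 12.3, 6.29 and 12.9 CPM in MUL-HSC, with replicate 3 the low one. In PEM-HSC, replicates 2, 3 and 5 had 0 counts there and the highest, replicate 4, had 2.07 CPM. The 6 PEM-HSC libraries held 10 counts and the 4 MUL-HSC libraries 78, a depth-scaled ratio of 14.7 (95% counting interval 7.60 to 31.9, exact, covering counting error only). The fitted log2 value was -3.81 ± 0.52, or -4.92 when PEM-HSC replicate 4 was left out.

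Chromosome 8 held 3 of the 12 lower regions. L2, from 124559257 to 124559832, had 14.8, 23.7, 9.95 and 14.9 CPM in MUL-HSC and 0.599 to 2.95 CPM (median 2.11) in PEM-HSC, a log2 fold change of -3.04 ± 0.35. L3, from 36352052 to 36352578, had 16.8, 13.2, 5.76 and 18.1 CPM in MUL-HSC and 0 to 3.30 CPM (median 1.78) in PEM-HSC, a log2 fold change of -2.87 ± 0.38. In both, MUL-HSC replicate 3 was the lowest of its group and still above every PEM-HSC library. L3 did not pass the filter, and was not tested, when MUL-HSC replicate 4 or PEM-HSC replicate 1, 4 or 5 was left out. On the chromosome, L3 lies far from L2 and L6, which are nearer to each other but have no shared neighbourhood of 50 kb.

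Of the other lower regions, L10 and L7 were intermediate, with signal left in PEM-HSC, while L5 and L8 were nearer to the almost closed ones. L10, on chromosome 18 from 12090062 to 12090577, was the most accessible of the 12, with 32.9, 56.2, 38.8 and 42.7 CPM in MUL-HSC. In PEM-HSC it had 5.38 to 19.1 CPM with a median of 15.2, and PEM-HSC replicate 3 was the low one. Its log2 fold change was -1.55 ± 0.21 (adjusted p = 0.000586, edgeR). L7, on chromosome 2 from 148222720 to 148223841, was the widest of the 12 at 1121 bp. It went from 41.0, 35.1, 27.8 and 31.0 CPM in MUL-HSC to 6.38 to 16.8 CPM (median 11.7) in PEM-HSC, a log2 fold change of -1.37 ± 0.19. L5, on chromosome 17 from 13852464 to 13852981, had 11.4 to 21.3 CPM in MUL-HSC. In PEM-HSC it had 0.898 to 5.91 CPM with a median of 2.56 (log2 fold change -2.47 ± 0.33). L8, on chromosome 2 from 52035269 to 52035987, had 22.8 CPM in MUL-HSC replicate 1 and 12.1 to 12.5 CPM in the other MUL-HSC libraries. It had 0 to 4.73 CPM (median 1.63) in PEM-HSC, a log2 fold change of -2.67 ± 0.37, and no other tested region within 50 kb.

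**Figure D3:**
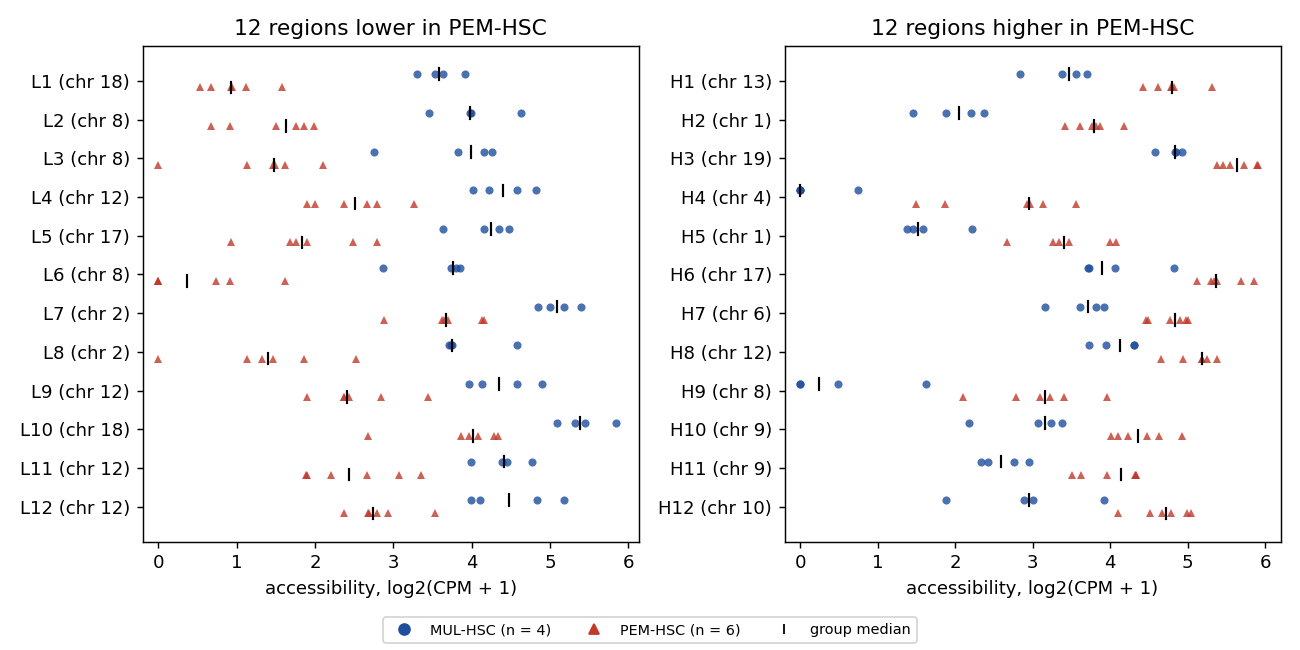
Accessibility of each named region in each library, as log2(CPM + 1) on the x axis, for the 12 lower regions (left) and the 12 higher regions (right), labelled on the y axis with their chromosome. Blue circles are the 4 MUL-HSC libraries, red triangles the 6 PEM-HSC libraries and black ticks the group medians. In all 24 regions the colours are separate, which their choice by smallest p favours.

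The remaining 4 of the 12 lower regions lay on chromosome 12. They were L4 (116573099 to 116573523), L9 (116357715 to 116358288), L11 (116383510 to 116384038) and L12 (116745578 to 116746156). Their log2 fold changes were much alike, at -2.02 ± 0.27, -1.93 ± 0.27, -1.93 ± 0.28 and -1.84 ± 0.27. L4 had 22.8, 27.2, 15.2 and 17.7 CPM in MUL-HSC and 2.73 to 8.59 CPM (median 4.75) in PEM-HSC. L9 had 28.9, 22.8, 14.7 and 16.5 CPM in MUL-HSC and 2.73 to 9.91 CPM (median 4.31) in PEM-HSC. In each of these 4 regions, PEM-HSC replicate 6 was the highest of its group and below every MUL-HSC library.

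These regions belong to a stretch at the far end of chromosome 12, from 116357715 to 117200000, that was bounded after the values were seen and therefore has no test of its own. It spans the longest run of lower regions and the longest chain of lower 100 kb windows in the genome. Of 26 tested regions in it, 11 were called lower (42.3%) and 0 higher, and 24 had a negative fold change, with a median log2 fold change of -1.25. In the other 1846 tested regions of chromosome 12, 16 were called lower (0.867%) and the median log2 fold change was 0.00. Summed over the 73 deposited regions of the stretch, MUL-HSC libraries had 676, 673, 443 and 488 CPM and PEM-HSC libraries 226 to 401 CPM with a median of 285. The group means were 570 ± 122 (SD, n = 4) and 292 ± 60.5 (SD, n = 6), a ratio of 1.95. MUL-HSC replicate 3 was the lowest of its group and PEM-HSC replicate 6 the highest of its group, and the groups did not overlap.

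Within the stretch, some regions between the lower ones had nearly equal levels in both groups. The region from 116403614 to 116404548 had 28.9 ± 4.22 CPM in MUL-HSC and 29.0 ± 3.88 CPM in PEM-HSC (SD, n = 4 and 6; log2 fold change 0.02 ± 0.15). It lies between lower regions on both sides, of which the nearest upstream, from 116396404 to 116397000, went from 25.1 ± 9.62 to 10.2 ± 4.70 CPM (log2 fold change -1.22 ± 0.29, adjusted p = 0.0436, edgeR). Another, from 116706171 to 116707147, had 18.8 ± 3.07 and 17.3 ± 3.65 CPM, between L12 and a lower region from 116699023 to 116699739 (log2 fold change -1.69 ± 0.25). Widths ran from 354 to 798 bp (median 573 bp) in the 11 lower regions and from 383 to 997 bp (median 733 bp) in the 15 others. All 5 regions of at least 900 bp, a cut not planned in advance, were among those not called, with log2 fold changes of -0.57 to 0.02. A region of 887 bp, also not called, had -0.75 ± 0.29. The last lower region of the stretch, from 117190588 to 117190942, went from 10.2 ± 3.44 to 2.96 ± 1.73 CPM. Of the 11 calls, 7 to 11 held in each fit that left out 1 library, 2 held without the libraries under 2000000 counts and 2 with 1 surrogate variable.

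**Figure D4:**
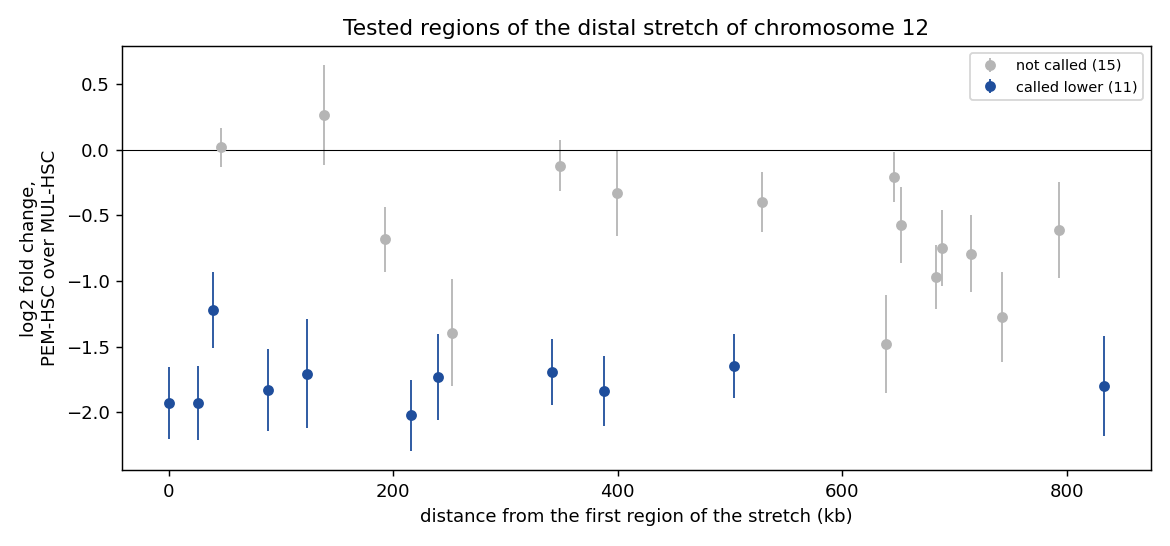
Log2 fold change of PEM-HSC over MUL-HSC (y axis, bars are ± 1 SE) for the 26 tested regions of the chromosome 12 stretch, by distance in kb from its first region (x axis). The 11 called regions (blue) lie between -2.02 and -1.22, and regions not called (grey) lie among them, some near 0.

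By smallest p, gains were led by regions already detectable in MUL-HSC. By fold change, the largest gains started from MUL-HSC means of only 0.168 to 1.01 CPM. H1, on chromosome 13 from 108389775 to 108391454, was the widest of the 12 at 1679 bp. It had 10.7, 6.15, 9.43 and 12.1 CPM in MUL-HSC and 20.5 to 38.9 CPM (median 26.7) in PEM-HSC, with replicate 5 the highest. Its log2 fold change was 1.47 ± 0.22 (adjusted p = 0.000713, edgeR). H3, on chromosome 19 from 43675392 to 43676376, was the most accessible of the 12 in PEM-HSC and the least changed. It had 27.5, 22.8, 27.8 and 29.4 CPM in MUL-HSC and 40.5 to 58.9 CPM (median 48.8) in PEM-HSC, a log2 fold change of 0.87 ± 0.14. H6, on chromosome 17 from 50207603 to 50208387, had 12.1, 12.3, 27.2 and 15.7 CPM in MUL-HSC and 33.7 to 56.9 CPM (median 40.1) in PEM-HSC. MUL-HSC replicate 3 was the high one of its group, and the log2 fold change was 1.34 ± 0.20.

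H4 and H9 had almost no counts in MUL-HSC. H4, on chromosome 4 from 107547158 to 107547548, had a single count in MUL-HSC, in replicate 1, and 93 counts in PEM-HSC. The depth-scaled ratio was 49.2, with a counting interval of 8.62 to 1964. PEM-HSC values ran from 1.82 to 10.8 CPM with a median of 6.72. The fitted log2 value of 5.02 ± 0.81 rests on that 1 count, and was 6.80 when MUL-HSC replicate 1 was left out. It was 4.54 without MUL-HSC replicate 4. H4 passed the filter for low counts only through PEM-HSC, where it is high. Without PEM-HSC replicates 1, 3, 4 or 5 it did not pass and was not tested. H9, on chromosome 8 from 4304026 to 4304637, had 0, 0, 4 and 1 counts in MUL-HSC replicates 1 to 4 and 3.30 to 14.6 CPM (median 7.95) in PEM-HSC. H9 too passed the filter only through PEM-HSC. Its ratio was 10.8 (counting interval 4.48 to 34.0). Its fitted log2 value of 3.37 ± 0.59 was 4.965 when MUL-HSC replicate 3 was left out, and the call was lost without MUL-HSC replicate 4 (adjusted p = 0.0534, edgeR). H2 also passed the filter only through PEM-HSC, and rose from a low level that every MUL-HSC library showed. Lying on chromosome 1 from 157230860 to 157231552, it had 2.69, 1.76, 4.19 and 3.62 CPM in MUL-HSC and 9.74 to 17.1 CPM (median 12.9) in PEM-HSC, a log2 fold change of 1.99 ± 0.30.

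The other 6 of the 12 higher regions rose 2.07-fold to 4.75-fold in the fit. H5 lies on chromosome 1 (15567743 to 15568330), H7 on chromosome 6 (28359781 to 28361005), H8 on chromosome 12 (31057494 to 31058601) and H12 on chromosome 10 (51853125 to 51853878). H5 had 2.02, 1.76, 3.67 and 1.61 CPM in MUL-HSC and 5.38 to 15.9 CPM (median 9.58) in PEM-HSC. H12 had 2.69, 7.03, 14.1 and 6.44 CPM in MUL-HSC, with replicate 3 the high one, and 16.2 to 31.9 CPM in PEM-HSC. H10 and H11 both lie on chromosome 9, from 61162979 to 61164121 and from 58862663 to 58863575. H11 had 4.03 to 6.72 CPM in MUL-HSC and 10.3 to 19.2 CPM in PEM-HSC, a log2 fold change of 1.57 ± 0.28. H11 and H12 lost the threshold without MUL-HSC replicate 4 (adjusted p = 0.0581 and 0.0681, edgeR). On their MUL-HSC values alone, H5, H10, H11 and H12 would not have passed the filter for low counts.

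Other tested regions within 50 kb of the named regions were mostly not called, but 2 of the 8 lower regions outside chromosome 12 (L3 and L8) and 2 of the 12 higher regions (H5 and H8) had no tested neighbour. Around the 8 lower regions that are not on chromosome 12, 1 of 19 neighbours was called lower and 0 higher, where 0.873% and 0.316% of all tested regions were called. Their median log2 fold change was -0.10. Around the 12 higher regions, 1 of 45 such neighbours was called higher and 1 lower, with a median of 0.05. Around the 4 lower regions of chromosome 12, 3 of 8 further neighbours were called lower, with a median of -0.95. None of the 3 neighbours of L1 was called, and the most accessible of them, 25.8 kb away, had 109 CPM in MUL-HSC and 117 CPM in PEM-HSC (log2 fold change 0.10 ± 0.12). Near L10, a region 4.25 kb away went from 45.9 to 31.7 CPM and did not pass (log2 fold change -0.54 ± 0.16, adjusted p = 0.105, edgeR).

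**Figure D5:**
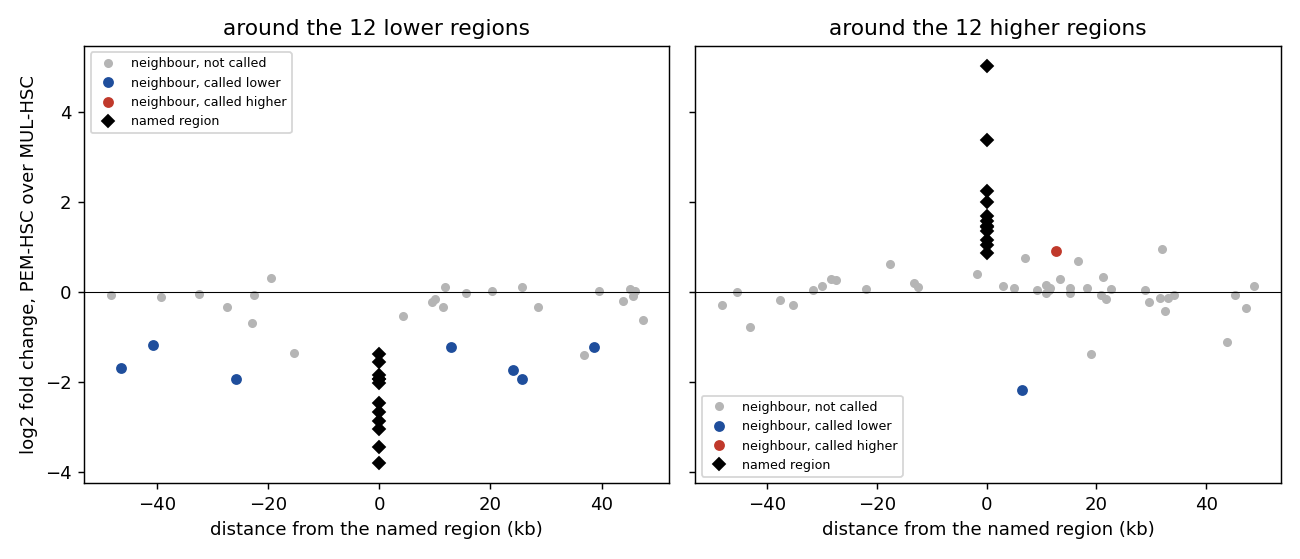
Log2 fold change (y axis) of the tested regions within 50 kb of the 12 lower (left) and 12 higher (right) named regions, by distance from the named region in kb (x axis). Black diamonds are the named regions, and most neighbours (grey) lie near 0, while called neighbours are blue (lower) or red (higher).

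The neighbourhood of H10 held changes in both directions within 13.6 kb of chromosome 9. H10 rose from 7.20 ± 2.59 to 20.6 ± 5.38 CPM (SD, n = 4 and 6). The region 6.49 kb downstream (61169499 to 61170585) had 23.9 ± 9.15 CPM in MUL-HSC and 4.91 ± 2.68 CPM in PEM-HSC. It was called lower, with a log2 fold change of -2.18 ± 0.33 (adjusted p = 0.00347, edgeR). The next one (61175800 to 61176545) was higher again, with 13.8 ± 3.30 CPM in MUL-HSC and 26.4 ± 3.06 CPM in PEM-HSC (log2 fold change 0.91 ± 0.18). A region from 61184415 to 61186321, more accessible than these 3 in MUL-HSC, had 49.5 CPM in MUL-HSC and 43.4 CPM in PEM-HSC and did not pass.

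Called regions were mostly single. When called regions of 1 direction at most 50 kb apart were joined, the 409 lower regions formed 385 groups, of which 365 held 1 region, 18 held 2 and 2 held 3 or more. The 148 higher regions formed 143 groups, of which 5 held 2 and none held more. The longest lower run was the start of the chromosome 12 stretch, with 5 called of 6 tested regions over 124 kb. The next lay on chromosome 2 from 157982302 to 158001511, with 3 called of 5 tested. Its log2 fold changes were -1.31, -0.69 and -0.85, and a region between them held 40.9 ± 3.38 and 42.5 ± 1.63 CPM. On chromosome 1, a pair of adjacent regions from 153647992 to 153650141 fell from 7.97 ± 0.918 to 2.18 ± 2.33 CPM and from 10.3 ± 1.77 to 1.83 ± 1.21 CPM. Among the higher pairs, the one on chromosome 11 lay closest together, from 96131257 to 96132611. Its regions rose from 6.11 ± 2.07 to 13.0 ± 2.89 CPM and from 1.43 ± 0.626 to 6.49 ± 2.25 CPM.

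Counts were also summed over fixed 100 kb windows with at least 3 deposited regions, which asks whether the summed counts of a neighbourhood differed. A single strong region can supply much of such a sum. Of 13229 windows tested, 127 were lower in PEM-HSC (0.96%) and 49 higher (0.37%; same test), together 1.33%, with median log2 fold changes of -0.65 and 0.63. In 60 of the lower and 15 of the higher windows no single region was called in that direction. Of the 446 tested regions inside the lower windows, 394 had a negative fold change (88.3%, against 48.1% of all tested regions), a share that the choice of windows helps to set. PEM-HSC lay wholly below MUL-HSC in 2.34% of all windows and wholly above in 1.82%, together 4.17%. The groups did not overlap in 88 of the lower and 43 of the higher windows.

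The 12 windows of smallest p, 6 in each direction, again included chromosome 12. In these 12 windows the strongest region supplied from 17.7% (chromosome 3) to 64.4% (chromosome 1, from 15500001) of the counts. The window from 116500001 to 116600000 had 67.0, 71.5, 50.1 and 55.2 CPM in MUL-HSC and 21.5 to 38.5 CPM (median 26.2) in PEM-HSC. Its log2 fold change was -1.10 ± 0.16 (adjusted p = 0.00253, edgeR), and that of the window from 116800001 to 116900000 was -0.99 ± 0.16. Adjacent lower windows formed 4 chains, 2 of them on this stretch, and the longest held 4 windows from 116800001 to 117200000. The chromosome 8 window around L2, from 124500001 to 124600000, fell by 0.80 ± 0.12 on the log2 scale. The chromosome 8 window from 122500001 to 122600000 differed in kind. It went from 68.8, 70.7, 69.5 and 75.3 CPM in MUL-HSC to 41.1 to 50.4 CPM in PEM-HSC (log2 fold change -0.64 ± 0.10), and none of its 5 tested regions was called alone. Lower windows on chromosome 7 (145400001 to 145500000) and chromosome 17 (45400001 to 45500000) had log2 fold changes of -1.74 ± 0.27 and -0.84 ± 0.14.

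Higher windows came in adjacent pairs at 2 places. On chromosome 1, the window from 15500001 to 15600000, which holds H5, rose from 1.81, 1.61, 4.25 and 3.29 CPM in MUL-HSC to 6.57 to 24.2 CPM (median 15.7) in PEM-HSC. Its log2 fold change was 2.41 ± 0.37, and 1 region supplied 64.4% of its counts. The window beside it (15600001 to 15700000) had 10.1 ± 5.14 CPM in MUL-HSC and 29.2 ± 5.15 CPM in PEM-HSC (SD, n = 4 and 6; log2 fold change 1.42 ± 0.24), although its only tested region did not pass alone. On chromosome 9, the window from 58700001 to 58800000 rose from 18.1, 19.3, 24.6 and 23.0 CPM to 35.0 to 49.2 CPM, a log2 fold change of 0.96 ± 0.15. Only 1 of its 12 deposited regions was tested alone, so the window gathers regions too weak for a test of their own. The next window on that chromosome, which holds H11, was called too (log2 fold change 0.54). Windows on chromosome 14 from 64200001 to 64300000 and from 59900001 to 60000000 rose by 0.66 ± 0.11 and 1.01 ± 0.18 on the log2 scale, and one on chromosome 3 from 36300001 to 36400000 by 0.70 ± 0.12.

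The window counts depended on the libraries as the region counts did. Without MUL-HSC replicate 3 there were 250 lower and 124 higher windows. Without MUL-HSC replicates 1, 2 or 4 there were 18, 24 and 11 lower and 9, 12 and 7 higher windows. Without PEM-HSC replicates 1, 2 or 5 there were 58, 80 and 59 lower and 30, 33 and 25 higher. With the covariate for the strongest regions, 28 lower and 30 higher windows were called, so that lower windows no longer outnumbered higher ones. The window of chromosome 3 and the second window of chromosome 14 lost the threshold without MUL-HSC replicate 4 (adjusted p = 0.0519 and 0.0635, edgeR).

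Lower regions were spread over all 19 autosomes and higher regions likewise. By chromosome, 0.326% (chromosome 19) to 1.44% (chromosome 12) of tested autosomal regions were lower. Outside the stretch described above, the share on chromosome 12 was 0.867%. On chromosome X, 1 of 991 tested regions was lower and 0 higher. Split into 3 equal classes by width, the wide regions (955 bp and more) had 0.570% called lower, against 0.916% of the narrow and 1.13% of the middle class. The higher calls took 0.339%, 0.198% and 0.410% in the same order. By distance to the nearest other deposited region, 0.595% of the closest class were lower, against 1.04% of the middle and 0.986% of the most isolated class. Differences between these classes were not tested.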

How the data were processed

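The submitters' processing notes name mm9 as the build and, as tools, MACS2, Picard, SAMtools, Bowtie2, FastQC and Trim Galore, and per the labels' protocols libraries were made by Omni-ATAC-seq with a Nextera kit. The authors deposited raw counts per accessible region, whole numbers for 115295 regions in 13 columns, of which the 3 columns of PLT-HSC libraries were not used. Not given in the sources used here are tool versions, the counting tool, the pooling for peak calls, duplicate removal and any shift of read ends. If regions were called mainly in deeper libraries, regions open only in shallow ones would be under-represented.

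The counts were analysed in R 4.3.3 with edgeR 4.0.16. After filterByExpr (by group), 46861 regions remained. They were scaled with TMM factors and tested two-sided with the robust quasi-likelihood test on the 10 libraries. P-values were adjusted over all tested regions (Benjamini-Hochberg) and called at 0.05. The same test ran on counts summed by region midpoint over 100 kb windows with at least 3 deposited regions, 13229 of them tested. CPM uses TMM-scaled totals of tested features, and each standard error is the absolute log2 fold change over the square root of F. The code was tested on simulated data. Principal components used log2 CPM with a prior count of 2.

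The text names the 12 regions and 6 windows of smallest p in each direction, and the longest runs. The members and lists were chosen with earlier results of these data known. Gene lists were not used, since regions were not placed on genes. All 21 within-group pairs of libraries differed beyond sampling noise (chi-square over its degrees of freedom 1.49 to 2.50), so none was counted as a duplicate. The labels name no separate animals, so p-values reflect only how far these samples spread, which may be technical. Alternatives were DESeq2 1.42.0, scaling by totals, 2 other filters, the replicate number as a block, no robust estimation, other windows and leaving out each library. Added after seeing the data were leaving out libraries under 2000000 counts, thinning, 2 covariates, 1 surrogate variable (sva 3.50.0) and leaving out chromosomes X and Y.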

Additional observations from a re-analysis of the deposited data

Results flagged for a closer look

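In groups of 4 or 6 libraries, 1 library was set apart from the rest by a gap wide for the group's range in 6 of 78 groups of values, and chance alone marks about 1 in 20. In L6, MUL-HSC replicate 3 had 6.287 CPM and the other MUL-HSC libraries 12.3 to 13.4. In L8, MUL-HSC replicate 1 had 22.84 CPM and the others 12.1 to 12.5. In H1, PEM-HSC replicate 5 had 38.93 CPM and the other PEM-HSC libraries 20.5 to 27.3. In H4, MUL-HSC replicate 1 had 0.6717 CPM, its group's only count, and the others 0. The 5000 strongest regions took 39.76% of the counts in PEM-HSC replicate 3 and 35.3% to 36.8% in the other PEM-HSC libraries. The share of counts in tested regions was 85.93% in MUL-HSC replicate 4 and 86.7% in the other MUL-HSC libraries.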

How the results depend on the processing

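The numbers of calls, 409 lower and 148 higher regions and 127 lower and 49 higher windows, moved by less than 1.5 times under DESeq2, scaling by totals, no robust estimation, the library total as a covariate and without chromosomes X and Y, and the windows also when shifted or cut to 50 kb, thinned, unfiltered or filtered at a mean of 20 counts. The individual calls held less often: of the 557 called regions, 323 stayed called under DESeq2, 361 with no robust estimation and 395 when the model held library totals, and of the 176 called windows 102 after thinning. Far fewer of the 557 stayed called with the replicate number as a block (150), without libraries under 2000000 counts (34) and with 1 surrogate variable (27). No called region or 100 kb window reversed where it was refitted, which choosing them by adjusted p in the same data favours. Lower and higher regions numbered 635 and 260 with no filter, 243 and 74 at a mean of 20 counts, 253 and 86 after thinning, 66 and 22 without the 5 libraries under 2000000 counts, 84 and 77 with a covariate for the share in the strongest regions, and 23 and 6 with 1 surrogate variable (its correlation with the first principal component was 0.911, sign aside). Lower and higher windows numbered 33 and 11 when those libraries were left out, 28 and 30 with the share and 45 and 18 with the surrogate variable. Of the surrogate variable's variance, 37.8% lay between the groups, so that fit could also take up part of their difference. Fewer regions were tested under the stricter filter and after thinning, and fewer samples without the shallow libraries; the cause of the other changes was not tested. With each library left out, lower regions ranged from 62 to 857, higher regions from 18 to 498, lower windows from 11 to 250 and higher windows from 7 to 124. The replicate number as a block gave 167 lower and 36 higher regions and 48 lower and 15 higher windows, but same-numbered libraries correlated at -0.128 to 0.0433 in their deviations from the group means, so the numbers do not pair them. Without the libraries under 2000000 counts, the calls of L6, L7, L11, L12, H2, H3 and H7 to H12 were lost, as were those of 6 of the 12 named windows, and with 1 surrogate variable those of L7, L9, L12, H3, H5, H7 and H9 to H12. At an unadjusted p under 0.05, 6505 regions passed (13.9%). A depth of 1276962 to 3851165 counts limits what low regions can show.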

Other observations

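A few called regions were close to absent in MUL-HSC and present in every PEM-HSC library, and the clearest by level lies outside the 12 named for their p. It was chosen after its values were seen, and it passed the filter for low counts only through PEM-HSC. This chromosome 6 region (76337178 to 76338211) had 0 counts in MUL-HSC replicates 1, 2 and 3 and 10 counts (4.03 CPM) in replicate 4. The 6 PEM-HSC libraries had 14.9 to 50.6 CPM with a median of 30.1, and 421 counts in all. The depth-scaled ratio was 22.3 (95% counting interval 11.99 to 46.8), and the fitted log2 fold change was 4.40 ± 0.73 (adjusted p = 0.0301, edgeR quasi-likelihood test). MUL-HSC replicate 4, and not replicate 3, was here the library nearest to PEM-HSC.

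A chromosome 16 region (41889520 to 41890059) had 0, 0, 3 and 1 counts in MUL-HSC replicates 1 to 4 and 4.13 to 22.8 CPM in PEM-HSC (log2 fold change 3.80 ± 0.73). A neighbour from 41914285 to 41914919 rose from 3.06 ± 1.07 to 8.72 ± 2.66 CPM. A chromosome 19 region (35528289 to 35528880) had all 5 of its MUL-HSC counts in replicate 3 and 4.56 to 9.88 CPM in PEM-HSC (log2 fold change 3.28 ± 0.61). These regions were also chosen after their values were seen, and they too passed the filter only through PEM-HSC.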
